A study of Mus musculus with 5 samples.

Results

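Polyamine metabolism was followed through 6 listed genes: Odc1, Amd1, Srm and Sms of synthesis, Sat1 of breakdown, and Oaz1, which encodes antizyme. The genes were listed by function, but they were chosen on the basis of earlier results from these same arrays in both comparisons, among them the low Srm signal at 72 h. Their values are therefore a description and support no test. All probe sets annotated to them were taken. Of 12422 probe sets that were not array controls, which stood for 8949 genes, 7 belonged to 5 of the 6 genes. The annotation used here gave no probe set the name Amd1, so its level was not analysed. The probe sets of Odc1, Srm and Sat1 (1 each) named no other gene. The 2 of Sms and the 2 of Oaz1 carried more than 1 gene name or identifier in the annotation, which does not separate the transcripts. They are written Sms/Sms-ps and Oaz1/Oaz1-ps. The pseudogene name is a label set during processing that stands for any further entry. Of each pair, the probe set with the higher mean signal is called bright (98136_at for Sms/Sms-ps, 101013_at for Oaz1/Oaz1-ps) and the other dim (160630_at and 161360_at). All 7 passed the filter on low signal.

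The cells were CD8 T lymphocytes of C57BL/6 mice aged 6 to 8 weeks that carry the OT-1 transgenic T cell receptor, which recognises an ovalbumin peptide. CD44-low cells from lymph nodes were cultured with latex microspheres that displayed this peptide on H-2Kb together with the costimulatory ligand B7-1, and every culture also received human IL-2. The 3 groups were 48 h without IL-21 (2 arrays), 48 h with murine IL-21 (2 arrays) and 72 h with murine IL-21 (1 array). The titles call each a biological replicate without saying whether mice or cultures were separate, so the errors given here measure only the spread between these samples, which may be technical. The lone 72 h array has no replicate, and without a 72 h culture lacking IL-21 in the comparison, time and continued IL-21 cannot be told apart.

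Polyamines (putrescine, spermidine and spermine) are small cations that bind nucleic acids and that dividing cells make in quantity. Ornithine decarboxylase (Odc1) makes putrescine from ornithine. S-adenosylmethionine decarboxylase (Amd1) supplies the aminopropyl groups that spermidine synthase (Srm) and spermine synthase (Sms) add in turn. Spermidine/spermine acetyltransferase (Sat1) marks the longer polyamines for breakdown or export. Antizyme (Oaz1) binds ornithine decarboxylase and sends it to the proteasome, and its own synthesis depends on a polyamine-induced ribosomal frameshift. Activated T cells raise polyamine synthesis as they grow, and Odc1 and Srm are known targets of the transcription factor MYC.

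Overall array signal differed before scaling, with trimmed means (outer 2% removed at each end) of 65.3 and 75.4 at 48 h without IL-21, 105 and 106 with it, and 65.9 at 72 h. Signals were therefore quantile-normalised, and all levels below are normalised signals on a linear scale that include an offset of 1.53. Ratios of the 3' to the 5' control probe sets, a sign of RNA quality, were 0.796 to 0.877 for Gapdh over the 5 arrays and 0.886 to 1.03 for actin. For Tfrc the ratio was 3.99 on the first array without IL-21 and 2.40 to 2.76 on the other 4. Of 8 CD8 T cell markers 7 were named on the array and all 7 passed the filter, with a summed signal of 4539 to 5079 at 48 h and 7603 at 72 h. Within that sum the members went different ways from 48 to 72 h with IL-21. The CD3 chains Cd3d (log2 difference 1.40) and Cd3g (1.78) and the surface protein Thy1 (0.58) were called higher. Cd8a went from a level of 721 to 506 (-0.51) and Cd247 was at -0.33, neither called. Between the 48 h groups 4 of the 7 were negative and 3 positive, with 0 called. Among these Cd8a had a level of 408 without IL-21 and 721 with it (0.82, SE 0.12). Of 7 B cell markers 6 were named, summing to between 383 and 671 at 48 h and 979 at 72 h, most of it Ighm. None of the 5 past the filter was called at 72 h, with Ighm at 0.88 (SE 0.40). Cd79b had group levels of 10.2 without IL-21, 20.0 with it at 48 h and 33.6 at 72 h, Pax5 had 30.4, 35.6 and 38.0, and Cd79a and Ms4a1 lay between 17.7 and 21.7. Of 13 myeloid markers 12 were named, with sums of 268 to 425 at 48 h and 371 at 72 h. Of the 7 past the filter 1 was called higher at 72 h, the class II gene H2-Ab1, from a level of 59.1 to 140 (1.24), and Itgax was at 1.30 without a call. The other 5 were negative and not called: Csf1r (-0.80), H2-Eb1 (-0.78), Cd14 (-0.61), Elane (-0.60) and Cd74 (-0.37). Cd3d, Cd3g, Thy1, H2-Ab1 and Cd8a kept their sign in the 4 scalings between arrays. The calls of Cd3d, Thy1 and H2-Ab1 were lost with median centring. Thy1 and H2-Ab1 also lost theirs with the deposited scaling and with only the groups compared, and Thy1 with control scaling. All 4 calls were lost without the variance trend and without either 48 h array with IL-21. With the deposited scaling Cd8a (-1.23) and Cd14 (-1.12) were called lower, where the median of all probe sets tested was -0.58. With the replicate number as a block Cd8a (-0.49) and Cd74 (-0.98) were called lower and Cd3e (0.62) higher. The other sums were small: 3 of 4 CD4 markers summed to 22.8 to 27.3 at 48 h and 45.3 at 72 h, and 2 of 6 NK cell markers to at most 15.3. Cd4 itself went from a level of 12.2 at 48 h with IL-21 to 32.6 at 72 h (1.42, SE 0.52), not called. For 3 of 6 erythroid and platelet markers the sum was 39.3 to 71.7 at 48 h and 43.3 at 72 h. The part of these shifts in the polyamine results was not tested, and in bulk RNA fewer cells of a type and less RNA per cell cannot be told apart.

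From 48 to 72 h with IL-21, 3 of the 4 probe sets of synthesis enzymes were called lower, and those of the breakdown enzyme and antizyme were not called. Srm fell 8.35-fold, Odc1 2.75-fold and the bright Sms/Sms-ps probe set 1.81-fold on the single 72 h array. The dim Sms/Sms-ps probe set, Sat1 and both Oaz1/Oaz1-ps probe sets did not pass the threshold, an adjusted p under 0.05. Between cultures with and without IL-21 at 48 h no probe set of these genes was called. Of the 7 probe sets, 3 were called lower and 0 higher at 72 h in limma over all 7453 probe sets tested, where 7.12% of all were called lower, 4.04% higher and 11.2% either way. The 72 h array lay below every 48 h array for 5 of the 7, as it did for 33.8% of all probe sets tested. The median log2 difference of the 7 was -0.46, against -0.01 for all probe sets tested.

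**Figure D1:**
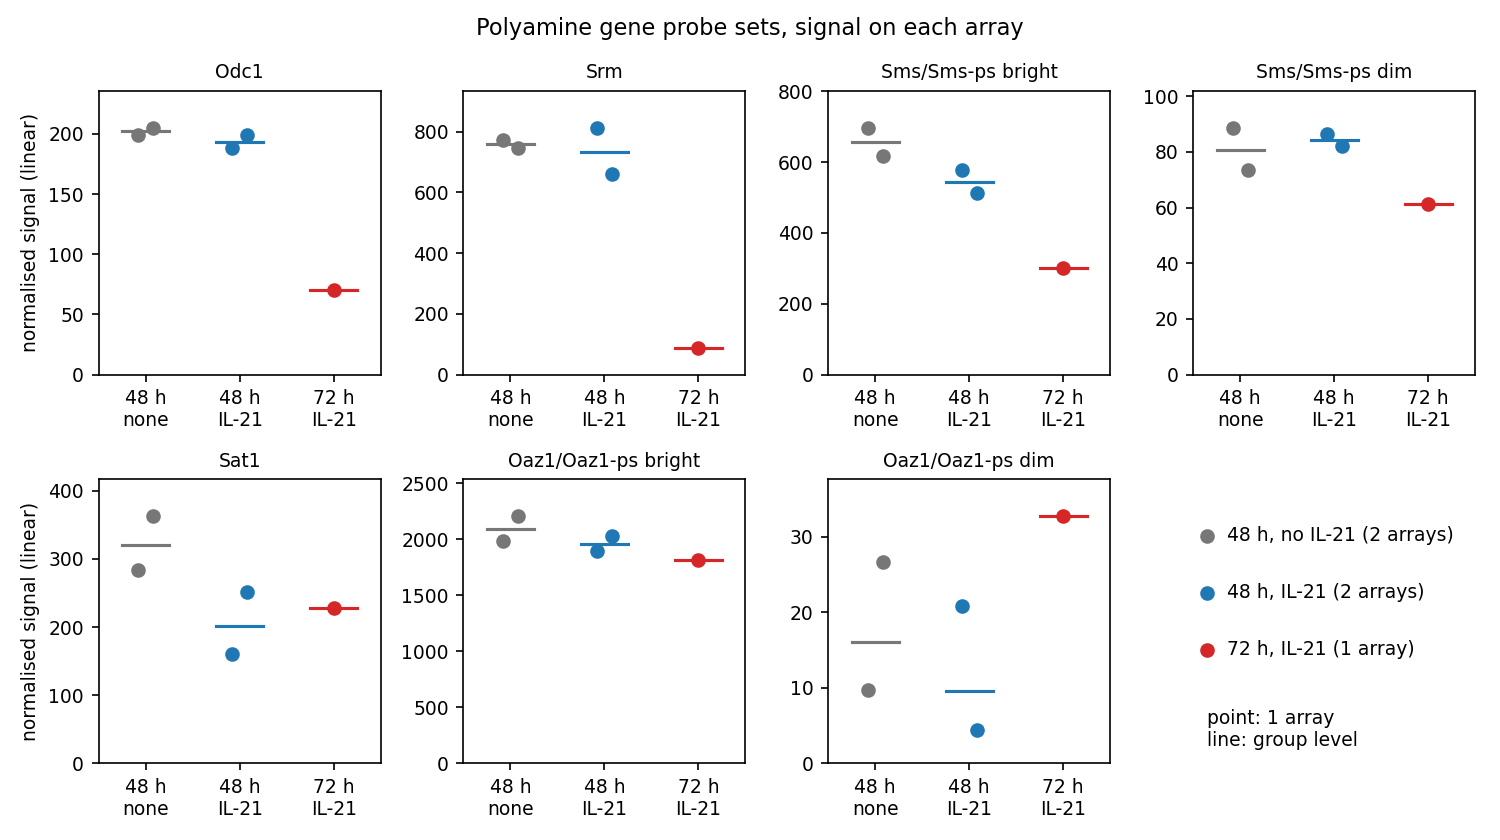
Normalised signal (linear scale, starting at 0) of the 7 probe sets on each array, grouped as 48 h without IL-21, 48 h with IL-21 and 72 h with IL-21; points are arrays and lines are group levels (2 raised to the mean log2 value). Srm stood between 660.2 and 814 on the 48 h arrays and at 87.7 at 72 h, whereas Oaz1/Oaz1-ps (bright) stayed between 1814 and 2206 on all 5.

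Promoter sequences are shown for Odc1, Sms and Sat1. Odc1 was called lower and Sat1 was not called, while of the 2 Sms/Sms-ps probe sets only the bright one was called lower. Each sequence is the 250 bases before the RefSeq transcription start (GRCm38.p6), 5′ to 3′ in lower case, with matches to searched motifs in capitals. Of the 6 listed genes 5 had a sequence in the RefSeq promoter table, and Srm was not among them. The motifs, searched on both strands with overlapping matches counted separately, were CACGTG (the E-box type bound by MYC and MAX), GGGCGG (the GC box, CCGCCC on the other strand) and TATAAA (the TATA box).

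Odc1, chr12:17544623-17544872, plus strand: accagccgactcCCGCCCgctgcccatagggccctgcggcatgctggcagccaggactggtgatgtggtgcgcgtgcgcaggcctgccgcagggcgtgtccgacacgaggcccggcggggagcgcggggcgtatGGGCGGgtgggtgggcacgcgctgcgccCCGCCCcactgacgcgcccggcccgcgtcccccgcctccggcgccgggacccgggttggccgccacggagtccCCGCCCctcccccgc

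Sms, first listed start, chrX:157492288-157492537, minus strand: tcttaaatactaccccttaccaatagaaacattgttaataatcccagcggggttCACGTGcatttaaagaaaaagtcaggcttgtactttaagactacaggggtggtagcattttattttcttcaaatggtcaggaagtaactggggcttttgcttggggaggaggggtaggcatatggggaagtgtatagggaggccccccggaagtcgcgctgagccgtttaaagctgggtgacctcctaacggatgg

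Sat1, chrX:155216450-155216699, minus strand: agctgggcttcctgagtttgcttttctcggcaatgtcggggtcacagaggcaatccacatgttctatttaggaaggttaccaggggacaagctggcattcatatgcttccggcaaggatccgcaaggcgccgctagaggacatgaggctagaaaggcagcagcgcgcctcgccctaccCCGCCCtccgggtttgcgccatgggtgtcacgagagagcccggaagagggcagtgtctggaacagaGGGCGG

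The first Sms window held 1 CACGTG, at positions -196 to -191 from the start, and this motif was found in 6.02% of the 32851 windows counted. The count, used for all 3 motifs, left out 1 chromosome and entries that were not of full length. No other window of these genes, that of Odc1 included, held CACGTG. The Odc1 window held 4 GGGCGG matches and the Sat1 window 2, where 32.7% of windows held at least 1. A second listed start of Sms had no CACGTG and 4 GGGCGG matches, the Amd1 window had 1 GGGCGG, and the Oaz1 window had no match. TATAAA, present in 12.4% of windows, was in none of the 6 windows of these genes. These are letter matches only, and binding was not measured here.

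Odc1 makes the first polyamine and is classically the limiting step. Its signal was 199 and 205 on the 48 h arrays without IL-21, 189 and 199 on those with IL-21, and 70.5 at 72 h. The 4 arrays at 48 h lay within a narrow band and the 72 h array far below it. From a group level of 194 at 48 h with IL-21 it fell 2.75-fold (log2 difference -1.46, SE 0.19). Measured against each 48 h array singly, the difference was between -1.54 and -1.42.

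Srm transfers the first aminopropyl group, making spermidine. Its signal was 774 and 745 without IL-21, 814 and 660.2 with IL-21 at 48 h, and 87.7 at 72 h. The 48 h groups overlapped, and the 72 h array was several-fold below all of them. Srm fell 8.35-fold (-3.06, SE 0.18), which placed it as the 3rd lowest difference of the 7453. Against single 48 h arrays the difference was between -3.21 and -2.91. Its place among all probe sets, by signal, was at the 96.7th to 97.4th percentile at 48 h and the 73.1st at 72 h, so the 72 h signal was not among the dim ones. In the array maker's naming, the suffix of this probe set (92540_f_at) marks probes that can match several related sequences, and whether transcripts related to Srm contribute was not tested.

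Sms adds the second aminopropyl group, making spermine. The bright Sms/Sms-ps probe set had 697 and 617 without IL-21, 577 and 513 with IL-21 at 48 h, and 299.9 at 72 h. The 3 groups did not overlap, in falling order. It fell 1.81-fold from 48 to 72 h with IL-21 (-0.86, SE 0.17). The dim one had 88.8 and 73.7, then 86.5 and 82.1, then 61.1. It had the same sign at 72 h, with a difference of -0.46 (SE 0.24) that did not pass. The spread of the synthesis enzymes was therefore wide on the log2 scale: the smallest difference, of the dim Sms/Sms-ps probe set, was -0.46 and that of Srm -3.06.

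Sat1 acetylates spermidine and spermine in the breakdown direction. Its signal was 284 and 363 without IL-21, 161 and 252 with IL-21 at 48 h, and 228 at 72 h. The 72 h array lay between the 2 arrays at 48 h with IL-21, and the difference of 0.18 (SE 0.31) did not pass. It was 0.50 against the first and -0.14 against the second of those arrays. Of the 7453 differences, 62.7% were lower than that of Sat1.

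Oaz1 restrains ornithine decarboxylase and was among the brightest signals on every array. The bright Oaz1/Oaz1-ps probe set had 1986 and 2206 without IL-21, 1890.3 and 2027 with IL-21 at 48 h, and 1814 at 72 h, from the 99.0th to the 99.2nd percentile. Its 72 h difference was -0.11 (SE 0.12) and did not pass. The dim one was scattered, with 9.67 and 26.6, then 20.8 and 4.45, then 32.7. Its difference was 1.77 (SE 1.04), opposite in sign to the bright one and also not past the threshold, and its replicates differed by up to 2.22 on the log2 scale.

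**Figure D2:**
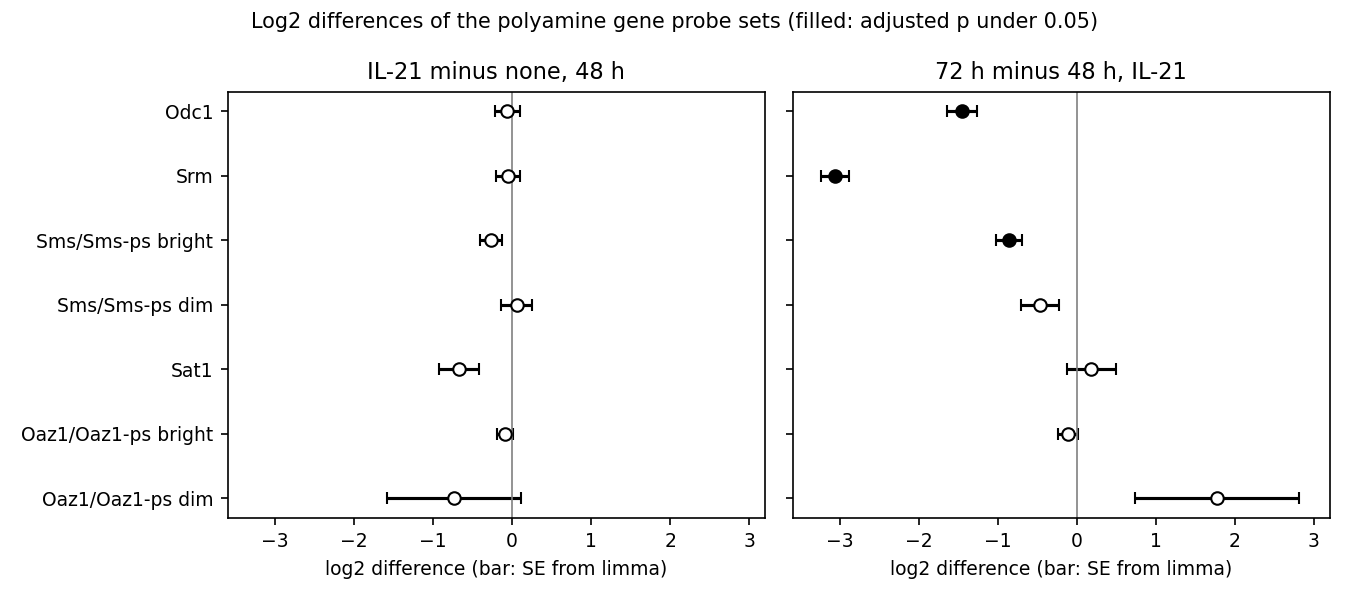
Log2 differences of the 7 probe sets (x axis) for IL-21 minus none at 48 h (left) and 72 h minus 48 h with IL-21 (right); bars are limma standard errors and filled points had an adjusted p under 0.05. Filled points appear only on the right, for Odc1 (-1.46), Srm (-3.06) and Sms/Sms-ps (bright) (-0.86).

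**Figure D3:**
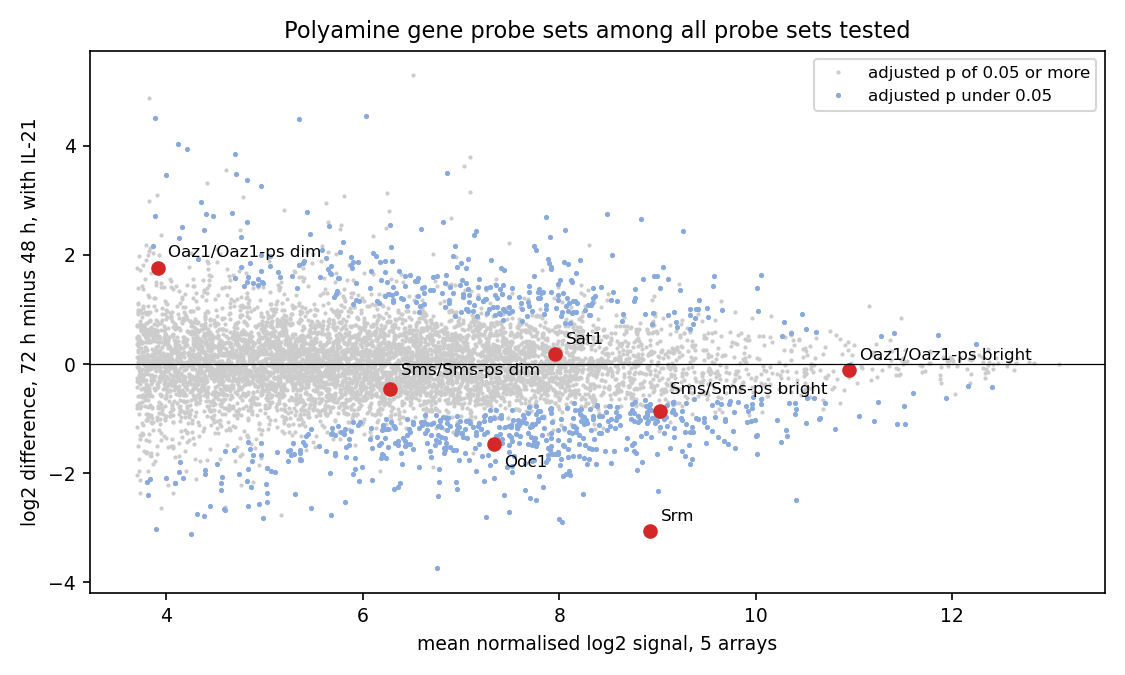
Log2 difference from 48 to 72 h with IL-21 (y axis) against mean normalised log2 signal over 5 arrays (x axis) for the 7453 probe sets tested, blue where the adjusted p was under 0.05, with the 7 polyamine probe sets in red. Srm lies at the lower edge of the cloud at -3.06, and Sat1 (0.18) and Oaz1/Oaz1-ps (bright) (-0.11) lie near 0.

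With 2 residual degrees of freedom, the 3 calls depended on the variance model in limma and on single arrays. Without a trend of variance on signal 0 of the 7 were called (and 0 of all probe sets), although the differences were the same; without the first or without the second 48 h array with IL-21 0 were called as well, with Srm at -2.91 and -3.21 and Odc1 at -1.50 and -1.42. Sms/Sms-ps (bright) also lost its call without either IL-21-free array. The same held with control scaling (-0.88) and with only the groups compared (-0.86).

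At 48 h the question was what IL-21 changed on top of antigen, B7-1 and IL-2. None of the 7 probe sets was called in limma, and 0 of all 7453 were (0%), with 327 of them at an unadjusted p under 0.05. Of the 7, 1 was among those 327, that of Sat1. Odc1 differed by -0.06 (SE 0.16) and Srm by -0.05 (SE 0.15), less than 1 standard error each. The 2 Sms/Sms-ps probe sets differed in sign, with -0.27 (SE 0.14) for the bright and 0.06 (SE 0.20) for the dim one. Oaz1/Oaz1-ps (bright) differed by -0.10 (SE 0.10), and the dim Oaz1/Oaz1-ps probe set by -0.74 (SE 0.85).

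Apart from the dim Oaz1/Oaz1-ps probe set, Sat1 had the largest 48 h difference of the 7. It was -0.67 (SE 0.25), or a level of 201 with IL-21 against 321 without. Both arrays with IL-21 were below both without it, and 2.16% of the probe sets tested had a lower difference. Arrays carrying the same replicate number differed by -0.82 and -0.53. The arrays within a group were also apart, by 0.36 in the group lacking IL-21 and by 0.65 in the group given it, and the difference did not pass. It was -0.35 without the first and -0.996 without the second array with IL-21, and -0.85 and -0.49 without the first and the second array lacking it. The groups did not overlap for 3 of the 7 probe sets (Odc1, Sms/Sms-ps (bright) and Sat1), all lower with IL-21, where 33.8% of all probe sets did not overlap and 17.9% were lower without overlap. For Odc1 this rested on nearly equal signals, 199.003 with IL-21 against 199.262 without. The median difference of the 7 was -0.10, against -0.01 for all tested.

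The sign of the small 48 h differences depended on the scaling between arrays. In the signals as deposited the median of all probe sets tested was 0.57 higher with IL-21 on the log2 scale, Srm was 0.55 and Odc1 0.50 higher, and Sat1 differed by -0.09. Relative to that median all 3 were lower, as they were relative to the main median. At 72 h the deposited scaling moved the median of all probe sets to -0.58 and Srm to -3.71, Odc1 to -2.06 and Sat1 to -0.56. Srm, Odc1 and both Sms/Sms-ps probe sets were negative at 72 h in the 4 scalings tried, while Sat1 and the bright Oaz1/Oaz1-ps probe set changed sign.

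**Figure D4:**
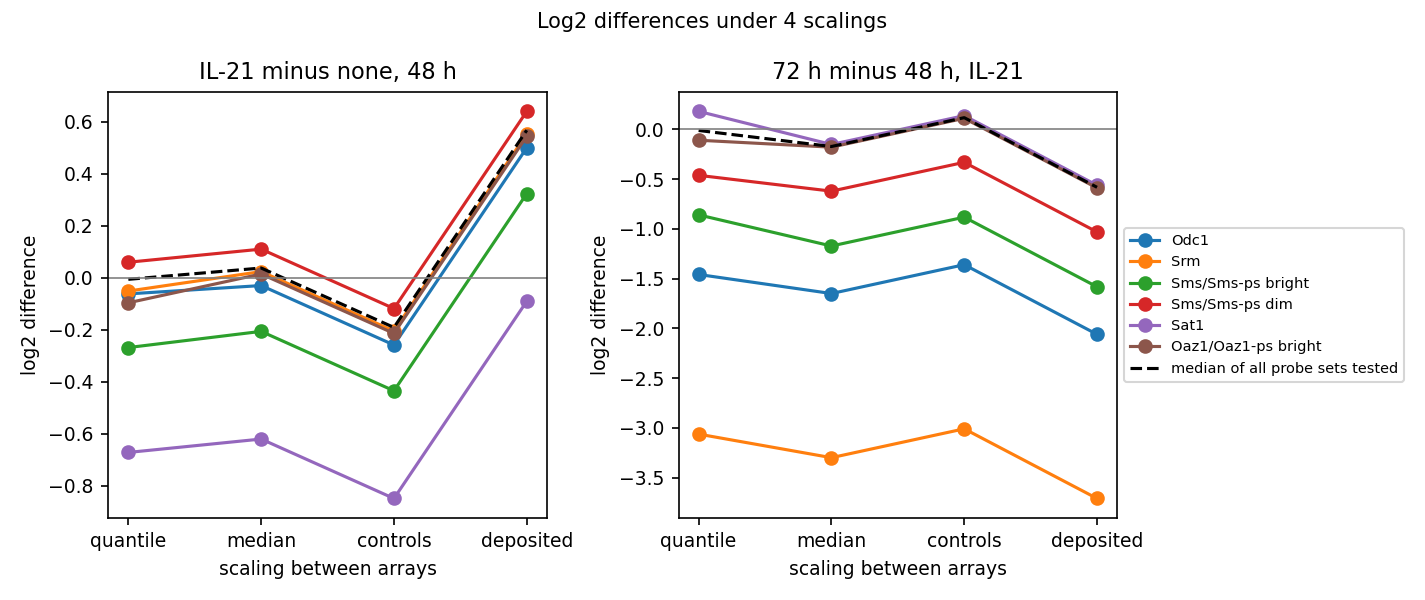
Log2 differences (y axis) of 6 of the 7 probe sets, leaving out the dim Oaz1/Oaz1-ps probe set, under 4 scalings between arrays (x axis: quantile, median centring, hybridisation controls, as deposited), for IL-21 minus none at 48 h (left) and 72 h minus 48 h with IL-21 (right); the dashed line is the median of all probe sets tested. On the left all lines move up with the deposited scaling, where that median is 0.57; on the right Srm stays between -3.71 and -3.01.

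Genes that feed or use the polyamine pathway were followed in 5 lists of 66 genes, chosen with earlier results known. Of these 38 were named on the array and 25 passed the filter. At 72 h 3 of the 25 were called lower and 0 higher, against 7.12% and 4.04% of all probe sets, with 17 negative, 8 positive and a median log2 difference of -0.31. At 48 h 0 of the 25 were called, with 13 negative and 12 positive. All 3 calls at 72 h were lost in limma without the variance trend, without the first and without the second 48 h array with IL-21.

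Among other polyamine enzymes and regulators, 2 of 10 genes were measurable above the filter and 0 were called. Azin1, the antizyme inhibitor that frees ornithine decarboxylase, had 349 and 280.04 without IL-21, 339 and 328 with it, and 269 at 72 h (-0.31, SE 0.20). Oaz2, a second antizyme, had 33.6 and 44.1, then 26.8 and 28.9, then 45.4 (0.71, SE 0.32). The hypusine pathway uses spermidine to modify the translation factor eIF5A. Of its 4 genes 2 passed the filter and 0 were called. Dohh, the hydroxylase of its last step, was at -0.44 (SE 0.23) and Dhps, the synthase that takes the spermidine, at -0.06 (SE 0.90), with a level of 20.4 at 72 h.

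In the supply of arginine, ornithine and proline, 6 of 14 genes passed the filter, of which 1 was called lower and 0 higher. Aldh18a1, which makes the common precursor of proline and ornithine from glutamate, had 84.5 and 66.1 without IL-21, 69.1 and 66.4 with it, and 26.1 at 72 h. It fell by 1.38 on the log2 scale (SE 0.27, adjusted p = 0.0305 in limma), while a second probe set below the filter was at 0.40. Glud1, glutamate dehydrogenase, was at 0.72 (SE 0.18) and Ass1, argininosuccinate synthase, at 0.67 (SE 0.25), neither past the threshold. For Asl, which releases arginine, the 2 probe sets disagreed, at -0.85 (SE 0.41) and 0.63 (SE 0.48). The arginases Arg1 and Arg2, which make ornithine from arginine, lay below the filter, at group levels of 3.98 to 6.18 and 7.05 to 16.9.

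The methionine cycle makes S-adenosylmethionine, and methionine salvage recycles the by-product of spermidine and spermine synthesis. Of 18 genes 7 passed the filter, 1 was called lower and 0 higher. Enoph1, an enzyme of salvage, had 40.9 and 46.6 without IL-21, 59.1 and 60.7 with it, and 17.7 at 72 h. It fell by 1.76 (SE 0.28, adjusted p = 0.0187 in limma). The other salvage enzymes measured did not pass: Adi1 was at -0.30 (SE 0.32) and Apip at 0.16 (SE 0.24). Ahcy, which clears S-adenosylhomocysteine, was at -0.37 (SE 0.19) with both its other probe sets negative, Ahcyl1, a related protein, at -0.29 (SE 0.16), and Mat2b, the regulatory subunit of the S-adenosylmethionine synthase, at 0.29 (SE 0.20).

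Transporters of polyamines and of their amino acid precursors had 8 of 20 genes past the filter, of which 1 was called lower and 0 higher. Slc7a5, the light chain of the large neutral amino acid transporter that carries methionine, had 1282 and 1084 without IL-21, 1014 and 1076 with it, and 359.5 at 72 h. It fell by 1.54 (SE 0.16, adjusted p = 0.00928 in limma). Its heavy chain Slc3a2 was at -0.90 (SE 0.31) and did not pass. Slc7a6 was at -1.26 (SE 0.36), and Slc7a1, the main arginine importer of many cells, at -2.13 (SE 0.74), neither past the threshold, with 72 h signals of 9.26 and 3.84 that are low. The transporter genes Atp13a2 and Atp13a3 were at 0.51 (SE 0.20) and -0.39 (SE 0.17).

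**Figure D5:**
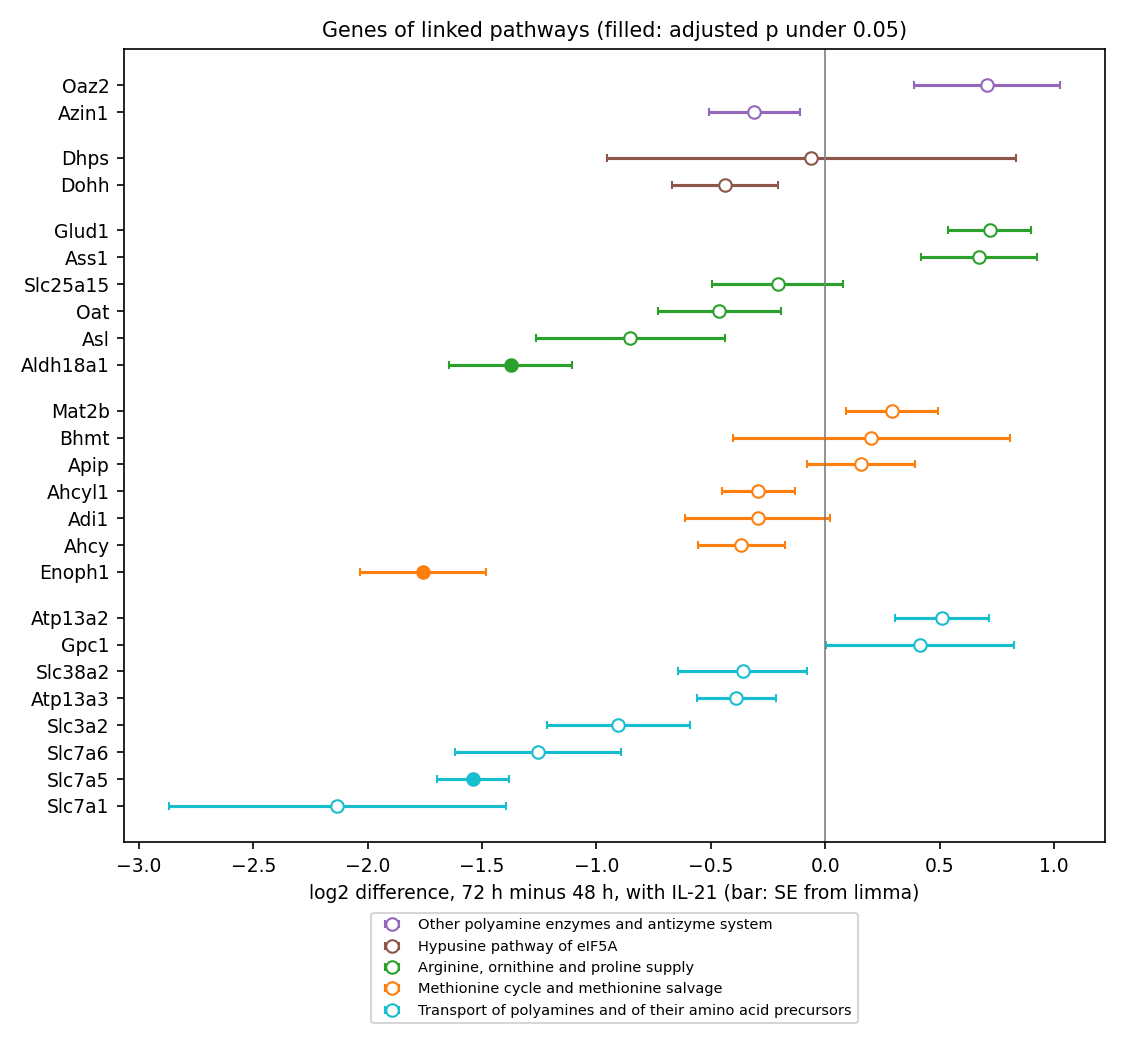
Log2 differences from 48 to 72 h with IL-21 (x axis, bars are limma standard errors) of the 25 genes of linked pathways past the filter (rows, coloured by list); filled points had an adjusted p under 0.05. The filled points are Aldh18a1 (-1.38), Enoph1 (-1.76) and Slc7a5 (-1.54), all to the left of 0.

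Myc, whose product activates Odc1 and Srm, had 239 and 275 without IL-21, 318 and 245 with IL-21 at 48 h, and 124 at 72 h. It fell by 1.17 on the log2 scale from 48 to 72 h with IL-21 (SE 0.23, adjusted p = 0.0308 in limma). The call of Myc at 72 h was lost without the variance trend and without the first 48 h array with IL-21. Its difference was not followed singly through the other alternatives. At 48 h Myc differed by 0.12 (SE 0.19). A link between Myc and the differences of Odc1 and Srm was not tested.

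Genes most like each polyamine gene were found by the distance between profiles of normalised log2 signal over the 5 arrays, each centred on its mean, among 6708 singly named probe sets; a distance of 0 means equal profiles. With 5 arrays and 1 dominant step the nearest genes share mainly the size of that step. The 5 nearest to Srm were Hnrnpab (distance 0.32), Smyd2 (0.40), Pdia6 (0.45), Bdkrb1 (0.46) and Timm9 (0.48), with 72 h differences between -3.11 and -2.52 and low 72 h signals, between 2.80 and 10.4. The Srm profile itself had a length of 2.77 from its mean on this scale. Odc1 was nearest to Tsr1 (0.10) and Ddost (0.11), Sms/Sms-ps (bright) to Gm5364 (0.09) and Ankrd17 (0.10), and Sat1 to Wars (0.16) and Rnf13 (0.20). The flat profile of Oaz1/Oaz1-ps (bright, length 0.21) was nearest to Mrps14 (0.03) and Traf6 (0.04).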

How the data were processed

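The authors deposited 1 linear intensity value per probe set and array. Per the submitters' processing notes these come from MAS5. Its version and scaling target, and any detection calls, were not given in the sources used here. Biotin-labelled cRNA was prepared from 10 ug of total RNA per the labels' protocols. MAS5 signals are noisy near background, so dim probe sets carry large errors, and the number of arrays (5) limits the precision.

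Of 12488 probe sets 66 were array controls. Gene names came from the platform annotation, updated through Entrez identifiers to GRCm38.p6 symbols (10817 of 10833 singly named probe sets matched). After adding an offset of 1.53 (10th percentile of the values), log2 was taken and arrays were quantile-normalised. Fold changes are on this scale, which understates changes of dim probe sets. Probe sets with a mean above the 40th percentile (7453) were fitted with limma 3.58.1 in R 4.3.3 as 3 group means over all 5 arrays, with a variance trend, two-sided tests and Benjamini-Hochberg adjustment at 0.05. The lone 72 h array is assumed to vary like the others.

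The members and all lists were chosen with earlier results of these data known. Named were every member probe set and Myc, up to 4 genes per linked list by the smallest 72 h p (each gene by its brightest probe set), and the genes with the nearest profiles; other names (Adi1, Apip, Arg1, Arg2, Atp13a2, Atp13a3) were chosen after their values were seen. The probe sets with a further entry beside the member are outside the naming rule, which asked for 1 gene, but within the member rule. The procedure was run on simulated data. Their noise was smaller than the spread between the 48 h arrays with IL-21 and equal for all probe sets. That run therefore does not measure the error rate of the calls in these data. Alternatives were the scaling, offset, filter, variance trend, replicate block, groups fitted and each 48 h array left out. Those for marker genes were chosen after seeing the data, as were the markers named singly.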

Additional observations from a re-analysis of the deposited data

How the results depend on the processing

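Counts below are probe sets called in limma for all tested, then for the 7 polyamine probe sets, then for the 25 linked genes. At 48 h the main counts were 0, 0 and 0. With the deposited scaling they were 696, 1 and 1, and with the replicate block 11 in all; leaving out each array in turn gave 0 in all. At 72 h the main counts were 832, 3 and 3. They were 2128, 5 and 12 with the deposited scaling and 0, 0 and 0 without the variance trend. The replicate block gave 1860 in all and 5 linked genes, and fitting only the groups compared gave 425 in all. Leaving out each 48 h array in turn gave 0 to 453, 0 to 2 and 0 to 2. Of the 72 h calls, 36.2% were higher in the main scaling, 18.1% with median centring, 49.5% with control scaling and 4.75% as deposited. The correlation of replicate deviations between the 48 h groups was 0.36, but with 2 pairs and no label that ties the numbers, the arrays share only a number.

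Signs changed mostly for small differences. With the deposited scaling the 48 h values of Odc1, Srm, Sms/Sms-ps (bright) and Oaz1/Oaz1-ps (bright) were 0.50, 0.55, 0.32 and 0.54, and Sat1 at 72 h was -0.56. With median centring Srm and Oaz1/Oaz1-ps (bright) were 0.023 and 0.014 at 48 h, and Sat1 -0.15 at 72 h. With control scaling Sms/Sms-ps (dim) was -0.12 at 48 h and Oaz1/Oaz1-ps (bright) 0.11 at 72 h. Leaving out each 48 h array in turn gave -0.20 to 0.10 for Srm, -0.075 to 0.19 for Sms/Sms-ps (dim) and -1.85 to 0.37 for Oaz1/Oaz1-ps (dim) and -0.996 to -0.35 for Sat1 at 48 h, and -0.14 to 0.50 for Sat1 at 72 h. Over all 14 alternatives at 72 h Srm stayed between -3.71 and -2.87, Odc1 between -2.06 and -1.29 and Sms/Sms-ps (bright) between -1.58 and -0.78; Srm and Odc1 kept their call in 11 of the 14, and Sms/Sms-ps (bright) in 7. Without the 72 h array the second comparison has no value.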
